A study of Mus musculus with 3 samples.

Results

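Bone morphogenetic protein (BMP) signalling in brown adipose tissue (BAT) was described through 10 genes: the ligands Bmp6 and Bmp4, the proteinase Bmp1, the type I receptors Bmpr1a, Acvr1 and Acvrl1, the type II receptor Bmpr2, the co-receptor Eng, and the inhibitory Smads Smad6 and Smad7. They were picked by name, with earlier results of these data known, so that a share of the members set beside that of all genes is a description. All 10 were listed in each of the 3 libraries, among 23041 genes in the untreated table, 23364 in the sham table and 23089 in the denervated table. The libraries held nuclear RNA of single nuclei from BAT of adult WT C57Bl6 mice, and the labels give them as non-treatment, sham operation or denervation. Run names in 2 of the table headers, nC for the untreated and nKO for the denervated library, are not explained in the sources used here, and the labels give WT for every library. The supplement of the study also names tamoxifen for the mice of the denervated library, names no Cre allele for them and names no tamoxifen for the untreated ones, so that, where it was given, denervation and tamoxifen cannot be told apart. The study asked which signals of endothelial cells (ECs) could reach brown adipocytes (BAs). By its methods, the untreated and denervated nuclei came from pooled animals and from the layer that floats after digestion of interscapular BAT, so that cells which sink in this step were depleted. Denervation was made on a single side in the study's animals, and how the sham library was prepared is not given in the sources used here. With 1 library per condition there was no replicate error, no test was made, and every interval below is a 95% interval that covers counting error only. Where a count is 0, the level that 3 counts would give is named as its limit, which is not such an interval.

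BMP ligands are secreted proteins of the TGFβ superfamily. A ligand joins type I and type II receptor kinases on the receiving cell, the type I receptor then phosphorylates Smad1, Smad5 and Smad9, and these switch on targets such as the Id genes and the inhibitory Smads, which damp the signal in turn. Bmpr1a encodes ALK3, the type I receptor through which BMPs act on adipose precursors, Acvr1 encodes ALK2, the usual partner of Bmp6, and Acvrl1 encodes ALK1, which with endoglin (Eng) forms the vascular receptor for the circulating ligands BMP9 and BMP10. Despite its name, Bmp1 is no ligand of this kind but a tolloid metalloproteinase that trims procollagens and cleaves the BMP antagonist chordin.

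The members lie on 7 chromosomes of GRCm38 and all 10 are protein-coding. Bmp6 spans chr13:38345107-38500302 on the plus strand, Bmpr1a spans chr14:34410734-34503341 on the minus strand, and Eng spans chr2:32646595-32682669 on the plus strand, in GENCODE coordinates. Sequence before the RefSeq start of these 3 genes is shown because they carried the contrast between vessel and adipocyte nuclei described below. The RefSeq starts of Bmp6 and Bmpr1a lie inside the GENCODE spans, and only the Eng window lies before the GENCODE gene. RefSeq promoters of build GRCm38.p6 were used for 7 of the 10 members. Smad7 was left out of the search, and no promoter was at hand for Bmp1 and Acvrl1. The 250 bases before each start were searched on both strands for GGCGCC, the core of Smad1 and Smad5 binding sites, and for CAGAC, a Smad4 element. Matches stand in capitals, and the reverse complement of CAGAC reads GTCTG. The windows of 4 of the 7 held a match.
Eng: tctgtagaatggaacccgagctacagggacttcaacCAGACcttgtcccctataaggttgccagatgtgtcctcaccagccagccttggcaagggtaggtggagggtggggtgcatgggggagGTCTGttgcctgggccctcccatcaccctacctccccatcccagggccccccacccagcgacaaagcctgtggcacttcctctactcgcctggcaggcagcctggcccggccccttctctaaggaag
Bmpr1a: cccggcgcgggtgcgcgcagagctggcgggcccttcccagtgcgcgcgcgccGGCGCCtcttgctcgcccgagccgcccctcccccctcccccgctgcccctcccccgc
Bmp6: cgcacgtgtgCAGACtgcgagtgac
The Eng stretch is the whole window, chr2:32646345-32646594 on the plus strand, and its 2 CAGAC matches begin 214 and 127 bases before the start. The Bmpr1a stretch, chr14:34502688-34502796 on the minus strand, is the 109 bases of the window outside annotated exons, and its GGCGCC match begins 198 bases before the start. All 250 bases of the Bmp6 window lie in an annotated first exon, so that only the 25 bases around its single CAGAC match are printed, at chr13:38345587-38345611 on the plus strand. GGCGCC occurred in 9.59% and CAGAC in 42.2% of all 32851 promoters, so a match is a description of these letters and not a binding site.

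The untreated, sham and denervated tables held 13707, 15368 and 15822 barcodes with 14971579, 14725864 and 9420030 UMIs (unique molecular identifiers, 1 per captured RNA molecule). After filters 10795, 12248 and 9722 nuclei were kept, with a median of 968, 746 and 688 UMIs. Any pair of libraries shared between 251 and 278 barcodes, at most 1.85% of either table. Clusters were named from marker genes, with all BMP pathway genes kept out of the clustering, and a name carries "-like" because it was rebuilt here and may differ from that of the study. BA-like nuclei numbered 4596, 3403 and 4998 and EC-like nuclei 5175, 5572 and 2065, with medians of 656, 511 and 368 UMIs per EC-like nucleus. White adipocyte-like (WA-like) nuclei numbered 148, 949 and 884, and pericyte-like (PC-like) nuclei 612, 1309 and 733. Vascular smooth muscle-like (VSM-like) nuclei were found in the untreated library, with 57, and the sham library, with 431. Clusters left without a name held 0.778%, 4.77% and 10.1% of the kept nuclei. Each had a best marker list but failed a naming rule, such as a high level of another compartment's markers. Among them were sham clusters of 75, 133 and 68 nuclei with immune, Schwann and fibroblast as best list. Denervated ones of 260 and 47 nuclei had immune and Schwann as best list. RNA of one type was present in the others: the 10 EC markers (9 in the denervated library) reached in BA-like nuclei 2.30%, 2.82% and 2.27% of their EC-like level, and the 8 adipocyte markers reached in EC-like nuclei 12.4%, 10.2% and 17.6% of their BA-like level, highest in the denervated library. Levels are given as UMIs of a gene per 1000000 UMIs of that nucleus type (CPM), summed over its nuclei.

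Bmp6, a ligand known as an endothelial product in the liver, was concentrated in endothelial nuclei. Its level in EC-like nuclei was 552 CPM (528 to 577, from 1964 UMIs) in the untreated library, 813 CPM (783 to 844) in the sham library and 340 CPM (303 to 380) in the denervated library. In every library this was the highest of all named types, and its interval did not overlap that of the next type. BA-like nuclei held 10.2 CPM (8.11 to 12.6), 16.1 CPM (12.6 to 20.1) and 9.40 CPM (6.91 to 12.5) of Bmp6. WA-like nuclei held 40.7, 25.3 and 16.0 CPM, and PC-like nuclei 27.7, 24.5 and 46.0 CPM. These lower levels depended on the clustering. When all libraries were clustered together, WA-like nuclei held 79.6, 48.1 and 20.7 CPM and PC-like nuclei 29.6, 67.9 and 51.2 CPM. Among the mural cells, sham VSM-like nuclei stood out with 91.9 CPM (60.6 to 134, from 27 UMIs), while the untreated ones gave 1 UMI. Of these 431 sham nuclei, 131 formed a cluster led by Il6 and Colec11 that held Acta2 and the fibroblast marker Col1a1 among its 10 leading genes, and it gave 4 of the 27 UMIs, or 49.3 CPM (13.4 to 126). When the profile of the other compartments was subtracted in proportion to their markers, 0, 0 and 0.813 CPM of Bmp6 remained in BA-like nuclei, 9.62, 0 and 35.5 CPM in PC-like nuclei, and 631, 911 and 423 CPM in EC-like nuclei. In this subtraction, here and below, a result under 0 was set to 0. The low Bmp6 level of BA-like nuclei was thus almost all within the amount subtracted.

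Bmp4, the other ligand and a driver of adipose commitment in precursors, was close to the limit of detection. EC-like nuclei gave 11, 36 and 5 UMIs, or 3.09 CPM (1.54 to 5.53), 10.7 CPM (7.47 to 14.8) and 5.41 CPM (1.76 to 12.6). BA-like nuclei gave 2, 1 and 1 UMIs, PC-like nuclei 1, 1 and 0, and VSM-like nuclei none. A count of 0 in denervated PC-like nuclei has a limit of 8.63 CPM at 3 counts. The 2 UMIs of the 25 untreated fibroblast-like nuclei came to 85.0 CPM with an interval of 10.3 to 307, a group too small to place. EC-like nuclei therefore held most Bmp4 UMIs among the large types of each library, and their interval lay above that of BA-like nuclei, but not above that of every small type at 0 UMIs.

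Bmp1 was highest in PC-like nuclei among the large types. They held 132 CPM (103 to 168), 154 CPM (131 to 180) and 101 CPM (70.1 to 140) in the untreated, sham and denervated libraries. EC-like nuclei held 27.8 CPM (22.6 to 33.9), 51.8 CPM (44.4 to 60.1) and 37.9 CPM (26.4 to 52.7), without overlap with PC-like nuclei in any library. BA-like nuclei held less still, at 5.97, 7.93 and 4.20 CPM. Fibroblasts are a known source of this procollagen proteinase, and the small fibroblast-like groups gave 212 CPM from 5 UMIs in the untreated library and 258 CPM from 8 UMIs in the denervated library, with intervals that overlapped those of PC-like nuclei. The 28 untreated Schwann-like nuclei gave 173 CPM from 4 UMIs. When all libraries were clustered together, fibroblast-like nuclei gave 328.5, 532 and 259 CPM from 9, 18 and 8 UMIs and Schwann-like nuclei 164, 196 and 470 CPM from 4, 17 and 15 UMIs, all above the 127, 141.5 and 109 CPM of PC-like nuclei in the same library. In WA-like nuclei Bmp1 was at 0 UMIs in the untreated library, with a limit of 13.6 CPM at 3 counts, at 9.95 CPM in the sham library and at 30.7 CPM (19.9 to 45.3) in the denervated library.

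**Figure D1:**
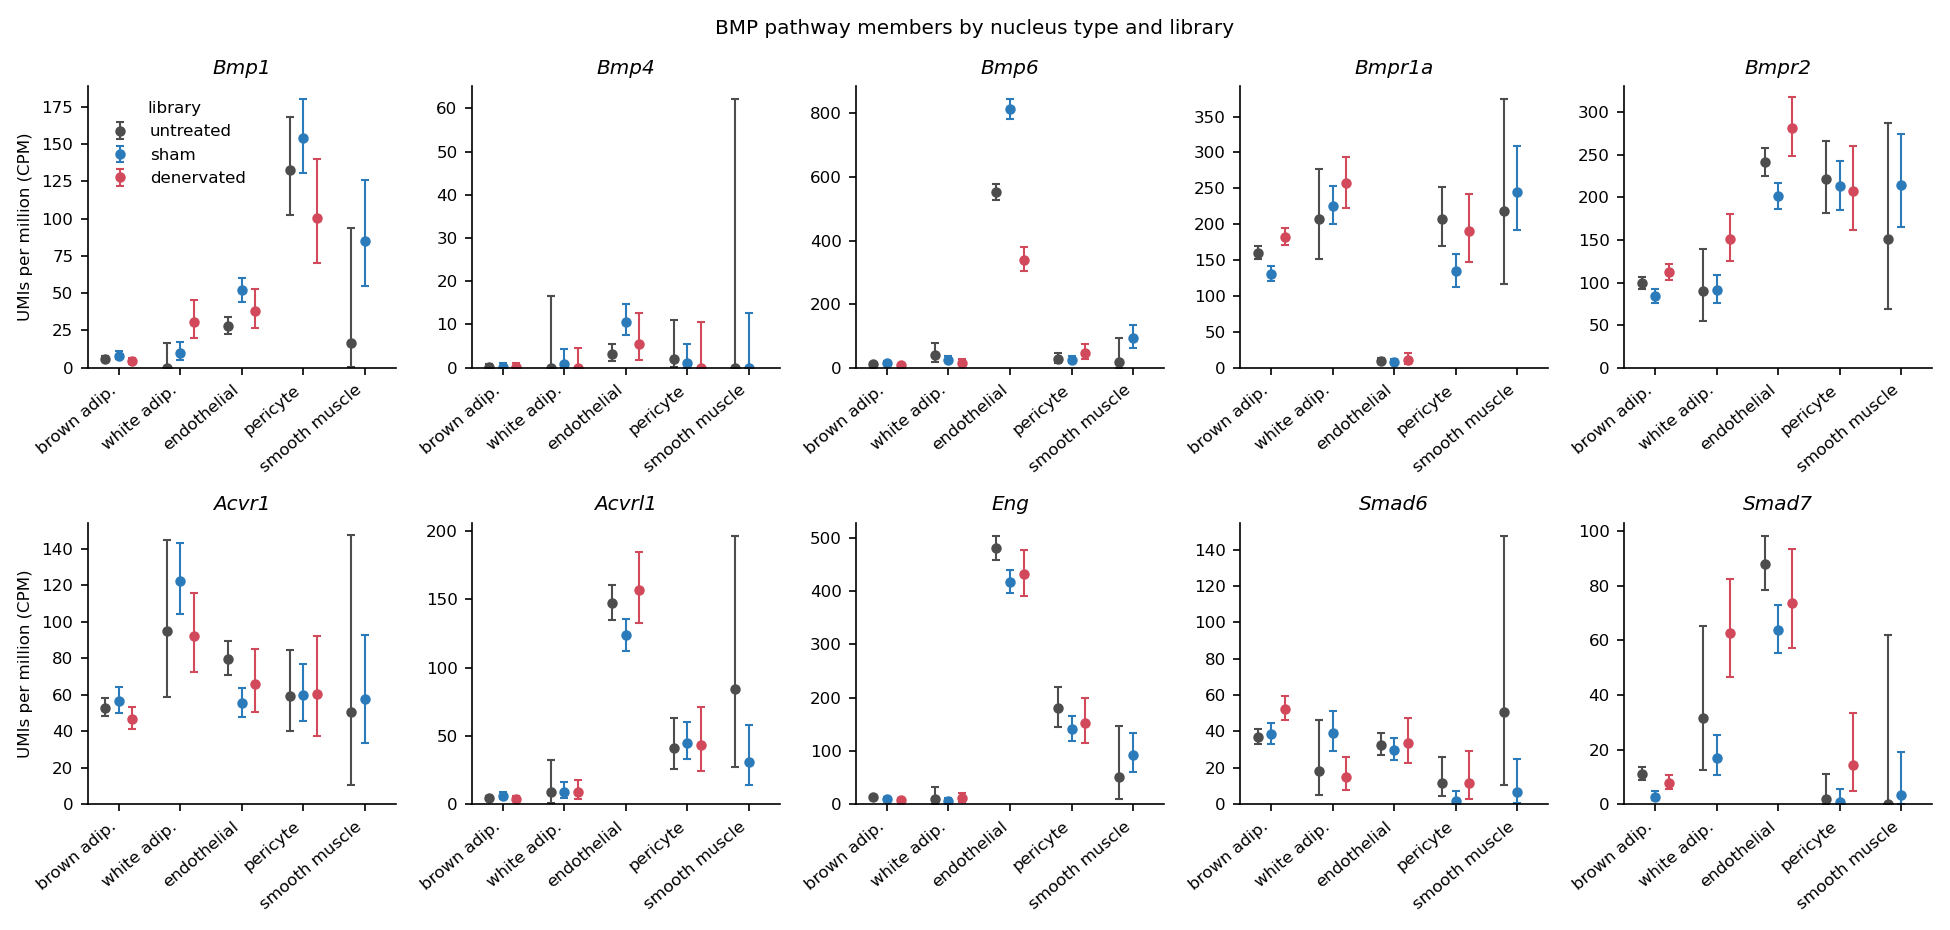
Level of each of the 10 members in CPM (vertical axis of each panel) in the main nucleus types (horizontal axis), with 1 point per library and bars for the exact 95% Poisson interval. Bmp6, Eng and Acvrl1 stand high in EC-like nuclei, Bmpr1a stands lowest there at 7.997 to 10.8 CPM, and Bmp1 is highest in PC-like nuclei among the types shown.

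Bmpr1a was close to the mirror image of Bmp6. BA-like nuclei held 160 CPM (152 to 169, from 1343 UMIs) in the untreated library, 131 CPM (121 to 142) in the sham library and 183 CPM (171 to 195) in the denervated library. WA-like nuclei held 208, 226 and 257 CPM, PC-like nuclei 208, 134 and 190 CPM, and VSM-like nuclei 219 CPM in the untreated and 245 CPM in the sham library. EC-like nuclei were the lowest of the large types with 9.55 CPM (6.62 to 13.4), 7.997 CPM (5.27 to 11.6) and 10.8 CPM (5.19 to 19.9), and their interval did not overlap that of any of these types. After subtraction of the other compartments, Bmpr1a in EC-like nuclei came to 0 CPM in all 3 libraries. The amount subtracted was larger than the level measured there, so 0 is the floor of this step and not an estimate. Above EC-like nuclei the order was less clear. In the untreated library the intervals of VSM-like, WA-like and PC-like nuclei overlapped, and that of PC-like nuclei (170 to 251) began just above the end of that of BA-like nuclei. In the sham library VSM-like and WA-like nuclei overlapped each other and lay above PC-like and BA-like nuclei, which overlapped each other as well.

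Acvr1, the other broad type I receptor, showed a flat profile. Its level ran from 52.9 CPM in BA-like to 94.9 CPM in WA-like nuclei among the adipocyte, EC-like and PC-like types of the untreated library, with EC-like nuclei at 79.8 CPM (70.8 to 89.6). In the sham library WA-like nuclei held 122 CPM (104 to 143), above a group of PC-like, VSM-like, BA-like and EC-like nuclei at 55.4 to 59.9 CPM. In the denervated library the WA-like level was 92.1 CPM and the BA-like level 46.8 CPM. WA-like nuclei thus had the highest Acvr1 level of the large types in each library, with an interval clear of the next only in the sham library.

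Acvrl1 and Eng, which form a receptor pair on endothelium, were highest in EC-like nuclei among the large types. Acvrl1 stood at 147 CPM (135 to 160), 124 CPM (112 to 136) and 157 CPM (133 to 185) in EC-like nuclei, at 41.5, 45.1 and 43.2 CPM in PC-like nuclei and at 4.54, 5.997 and 4 CPM in BA-like nuclei. Small untreated groups had intervals that overlapped it. Fibroblast-like nuclei gave 170 CPM (46.3 to 435, from 4 UMIs), above the EC-like value, Schwann-like nuclei 129.5 CPM (26.7 to 379, from 3 UMIs), the 70 immune-like nuclei 126 CPM (54.4 to 248, from 8 UMIs) and VSM-like nuclei 84.1 CPM (27.3 to 196, from 5 UMIs). Eng stood at 480 CPM (458 to 504), 418 CPM (396 to 440) and 432 CPM (391 to 477) in EC-like nuclei. PC-like nuclei held 180 CPM (145 to 221), 141 CPM (119 to 166) and 153 CPM (114 to 199) of Eng, below EC-like and above BA-like nuclei without overlap. In BA-like nuclei Eng was at 12.9, 10.1 and 8.20 CPM and at 0 CPM in all 3 libraries after subtraction of the other compartments.

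Bmpr2, the type II receptor shared by most BMP complexes, was present in every large type. EC-like nuclei held 242 CPM (226 to 258), 201 CPM (187 to 217) and 282 CPM (248 to 318). PC-like nuclei held 221, 213 and 207 CPM, with intervals that overlapped those of EC-like nuclei in each library. BA-like nuclei held 99.6 CPM (93.0 to 107), 83.8 CPM (75.7 to 92.5) and 112 CPM (103 to 122), and WA-like nuclei 90.4, 91.1 and 151 CPM. BA-like nuclei therefore carried the type II receptor together with Bmpr1a and Acvr1, and EC-like nuclei carried it with Acvrl1, Acvr1 and Eng with Bmpr1a at 7.997 to 10.8 CPM.

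The inhibitory Smads went separate ways. Smad7, which blocks both the BMP and the TGFβ branch, was at 87.9 CPM (78.5 to 98.2), 63.7 CPM (55.5 to 72.8) and 73.6 CPM (57.2 to 93.3) in EC-like nuclei and at 11.1 CPM (8.97 to 13.6), 2.79 CPM (1.48 to 4.76) and 7.80 CPM (5.55 to 10.7) in BA-like nuclei. In WA-like nuclei it was at 31.6 CPM from 7 UMIs, 16.8 CPM from 22 UMIs and 62.6 CPM (46.6 to 82.4, from 51 UMIs), so that in the denervated library the WA-like and EC-like intervals overlapped. Smad6, the inhibitor with a preference for BMP receptors, was shared by both main types instead. BA-like nuclei held 37.1 CPM (33.1 to 41.5), 38.6 CPM (33.1 to 44.6) and 52.6 CPM (46.4 to 59.4) of Smad6, and EC-like nuclei 32.6, 29.9 and 33.6 CPM. PC-like nuclei gave 6, 2 and 4 UMIs of Smad6, or 11.9, 1.96 and 11.5 CPM, below BA-like nuclei in each library. They gave 1, 1 and 5 UMIs of Smad7, or 1.98, 0.981 and 14.4 CPM. The last lay above the 7.80 CPM of denervated BA-like nuclei, with overlapping intervals. When all libraries were clustered together this order turned, with 3.42 CPM from 1 UMI in denervated PC-like and 6.78 CPM in denervated BA-like nuclei.

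The contrast of EC-like against BA-like nuclei was then put as a log2 ratio of CPM for each member with at least 20 UMIs over both types, and a ratio of at least 1 in size was called past 2-fold. In the untreated library 6 of 9 such members were higher in EC-like nuclei, against 18.8% of 13871 genes, and 1 was lower, against 28% of all genes. In the sham library 7 of 10 were higher, against 20.9%, and 1 was lower, against 25.4%. In the denervated library 6 of 9 were higher, against 18.5%, and 1 was lower, against 26.7%. The median ratio of the members was 2.22, 3.54 and 3.17, while that of all genes was -0.29, -0.12 and -0.21.

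Bmp6 had log2 ratios of 5.76 (5.45 to 6.10), 5.66 (5.33 to 6.01) and 5.18 (4.73 to 5.65) in the untreated, sham and denervated libraries. Eng stood at 5.22, 5.37 and 5.72, and Acvrl1 at 5.02, 4.36 and 5.29. These 3 genes were thus far above the fold in each library. With the other compartments subtracted, their BA-like levels were at most 1.585 CPM. The sizes of these ratios therefore depend on RNA carried over into BA-like nuclei and do not rank the 3 genes. Smad7 had ratios of 2.98, 4.51 and 3.24 and Bmp1 ratios of 2.22, 2.71 and 3.17. Bmpr2 was less uneven, at 1.28 (1.14 to 1.42), 1.27 (1.08 to 1.45) and 1.33 (1.11 to 1.54). The seventh member called in the sham library was Bmp4, with 36 UMIs against 1 and a ratio of 5.64 with the wide interval of 3.07 to 10.98. Bmpr1a was the member lower in EC-like nuclei, with -4.07 (-4.61 to -3.58), -4.03 (-4.64 to -3.48) and -4.08 (-5.14 to -3.19). Acvr1 at 0.59, -0.04 and 0.50 and Smad6 at -0.19, -0.37 and -0.65 stayed within 2-fold. Over the other settings tried, Bmp6 in the denervated library ranged from 4.43 to 9.02 and Bmpr1a there from -5.35 to -1.68, past the fold in each.

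**Figure D2:**
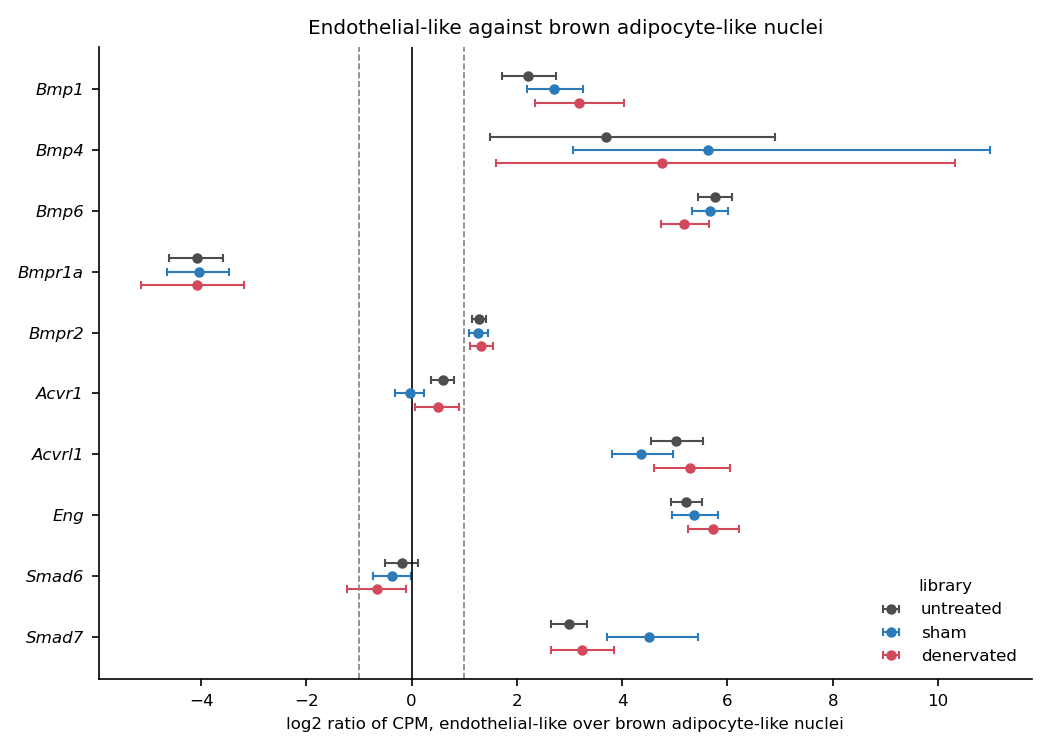
Log2 ratio of CPM in EC-like over BA-like nuclei (horizontal axis) for each member (vertical axis), with 1 point per library, bars for the exact 95% interval and dashed lines at 2-fold. Bmp6, Eng and Acvrl1 lie between 4.36 and 5.76, Bmpr1a lies near -4 in all 3 libraries, and Acvr1 and Smad6 lie within the dashed lines.

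PC-like nuclei shared the vascular receptors with EC-like nuclei and Bmpr1a with BA-like nuclei. Over BA-like nuclei, the log2 ratio of Eng was 3.80, 3.81 and 4.22, that of Acvrl1 3.19, 2.91 and 3.43, and that of Bmp1 4.47, 4.28 and 4.58. Bmpr1a differed little between PC-like and BA-like nuclei, with 0.37 (0.07 to 0.66), 0.04 (-0.24 to 0.31) and 0.06 (-0.33 to 0.42). Smad6 was lower in PC-like nuclei, with -1.65 (-3.11 to -0.51), -4.30 (-7.35 to -2.42, from 2 UMIs) and -2.19 (-4.08 to -0.82). In the denervated library the 8 adipocyte markers reached 32.2% of their BA-like level in PC-like nuclei, against 9.52% and 6.30% in the other libraries. With the other compartments subtracted, denervated PC-like nuclei held 144 CPM of Bmp1 in place of 101, 208 CPM of Bmpr1a in place of 190, 186 CPM of Eng in place of 153 and 0 CPM of Smad6 in place of 11.5. Within the adipocytes, Smad7 was higher in WA-like than in BA-like nuclei at 1.51 (0.16 to 2.61), 2.60 (1.54 to 3.71) and 3.005 (2.38 to 3.65), and Acvr1 stood at 0.84, 1.11 and 0.98.

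Shares of nuclei with a UMI followed the same split but depended on depth. Bmp6 was detected in 24.7%, 32.2% and 11.6% of EC-like nuclei, against 1.83%, 2.06% and 0.920% of BA-like nuclei, although a BA-like nucleus held a median of 1816, 1366 and 888 UMIs. With each nucleus thinned to 400 UMIs and shallower ones left out, the shares were 16.3%, 24.5% and 9.23% in EC-like and 0.377%, 0.609% and 0.398% in BA-like nuclei. The thinning left out 1207, 1689 and 1166 EC-like nuclei and 84, 119 and 226 BA-like nuclei. Bmpr1a was detected in 22.0%, 14.0% and 14.6% of BA-like nuclei before thinning and in 6.09%, 4.66% and 7.52% after it. In EC-like nuclei Bmpr1a was detected in 0.638%, 0.413% and 0.484% before and 0.302%, 0.360% and 0.334% after thinning, which is the background to read these shares against. Bmpr2 after thinning was found in 8.95%, 7.37% and 10.3% of EC-like and 4.19%, 3.14% and 4.57% of BA-like nuclei.

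EC-like nuclei were clustered again to see whether the members were even along the vascular tree. Arterial EC-like nuclei (300 untreated, 251 sham) and venous EC-like nuclei (103 untreated, 186 sham, 86 denervated) could be named from their markers, no cluster met the rule for capillary cells, and the remainder of 4772, 5135 and 1979 nuclei is called other EC-like. Bmp6 was at 94.0 CPM (58.9 to 142) in untreated and 310 CPM (226 to 415) in sham arterial nuclei, against 594 CPM (568 to 621) and 862 CPM (830 to 896) in other EC-like nuclei. Venous nuclei held 265 CPM (173 to 388), 259 CPM (182 to 357) and 33.6 CPM (6.94 to 98.3, from 3 UMIs) of Bmp6, against 373 CPM in denervated other EC-like nuclei. Bmp6 was therefore lower in both named sub-types than in other EC-like nuclei, without overlap. The arterial level was also clear of the venous one in the untreated library, whereas the 2 overlapped in the sham library. In the denervated library the venous cluster was also led by the cell cycle genes Mki67 and Top2a.

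In arterial over other EC-like nuclei, 2 of 9 members passed 2-fold in the untreated library, against 20.8% of all genes, and 3 of 10 in the sham library, against 27.2%. The sham count moved to 7 when nuclei with 100 genes were admitted and to 8 when BMP genes entered the clustering. Bmp6 was lower by this measure with log2 ratios of -2.66 (-3.34 to -2.06) and -1.48 (-1.94 to -1.05). Smad6 was the other untreated member, at 1.05 (0.16 to 1.84) from 15 arterial UMIs, and it kept this call in 6 of 9 other settings. In the sham library the receptor Bmpr2 was higher at 1.24 (0.83 to 1.61) and Smad7 at 1.15 (0.40 to 1.81). Smad7 kept this call in 5 of 8 other settings and Bmpr2 in 8 of 8, while Acvr1, within the fold at -0.74, passed it in 5 of 8. The same genes pointed upward in the other library without passing the fold, with Bmpr2 at 0.39 and Smad7 at 0.75 in the untreated and Smad6 at 0.71 in the sham library. Acvrl1 stood at 0.90 (0.49 to 1.29) and 0.79 (0.20 to 1.33), while Eng was even at 0.24 and -0.08.

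Bmp4 was concentrated in venous nuclei. Its UMIs numbered 6, 13 and 4 in venous nuclei, 5, 22 and 1 in other EC-like nuclei, and 0 and 1 in arterial nuclei. As levels these were 61.0 CPM (22.4 to 133), 91.0 CPM (48.5 to 156) and 44.8 CPM (12.2 to 115) in venous nuclei, against 1.55, 7.12 and 1.20 CPM in other EC-like nuclei. The venous interval lay above that of other EC-like nuclei in each library. In venous over other EC-like nuclei, 2 of 9 members passed 2-fold in the untreated library, against 33.4% of all genes, 5 of 10 in the sham library, against 29.1%, and 1 of 8 in the denervated library, against 33.4%. Bmp6 was lower in all 3, with -1.17 (-1.79 to -0.61), -1.74 (-2.25 to -1.27) and -3.47 (-5.76 to -1.91). The sham members beside Bmp6 were Bmp4 at 3.67 (2.56 to 4.73), Bmpr2 at 1.16 (0.75 to 1.56), Smad7 at -1.57 from 3 UMIs with an interval that reached 0, and Bmpr1a at 0 UMIs, where the limit of 21 CPM at 3 counts lies above the 8.42 CPM of other EC-like nuclei and no fold is given. When all libraries were clustered together, Bmp4 gave 6, 18 and 1 UMIs in venous nuclei, or 34.2, 32.1 and 19.2 CPM, against 1.63, 5.75 and 4.62 CPM in other EC-like nuclei. Under that joint clustering the venous level of Bmp6 was 422, 826 and 307 CPM against 601, 846 and 367 CPM, so the lower venous level depended on how the venous nuclei were drawn.

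**Figure D3:**
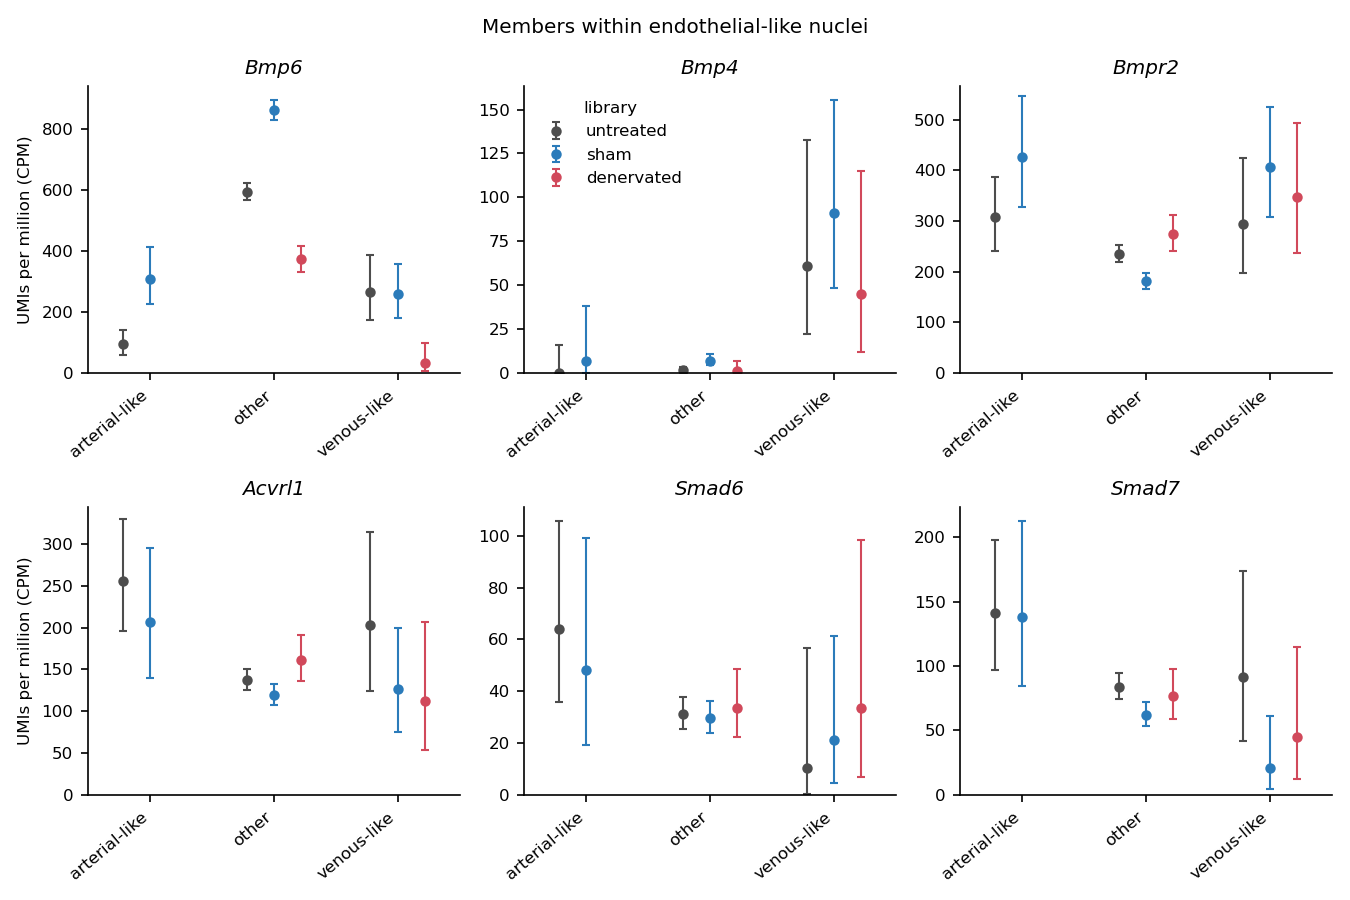
Level in CPM (vertical axis of each panel) of Bmp6, Bmp4, Bmpr2, Acvrl1, Smad6 and Smad7 in arterial-like, other and venous-like endothelial nuclei (horizontal axis), with 1 point per library and bars for the exact 95% Poisson interval; no arterial nuclei were named in the denervated library. Bmp6 is highest in other EC-like nuclei, at 373 to 862 CPM, and Bmp4 is highest in venous nuclei, at 44.8 to 91.0 CPM.

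Between libraries the members were compared within each type, and the 3 ratios of each type share libraries. In EC-like nuclei, denervated over untreated, 0 of 9 members passed 2-fold, against 10.6% of all genes in either direction. Denervated over sham, 1 of 10 passed, against 19.4%, and sham over untreated, 1 of 10 passed, against 9.38%. Bmp6 was the gene called in denervated over sham at -1.26 (-1.43 to -1.09), and it also stood at -0.70 (-0.88 to -0.53) over untreated, a ratio that passed the fold in 3 of 13 other settings. Its sham over untreated ratio of 0.56 (0.47 to 0.64) was nearly as large, so that the untreated and sham libraries also differed from each other beyond counting error. Bmp4 was the gene called in sham over untreated, at 1.79 (0.78 to 2.91) from 36 and 11 UMIs, and this call held in 12 of 13 settings tried.

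Because denervated EC-like nuclei were the shallowest, Bmp6 was compared within bands of depth. Among EC-like nuclei with under 300 UMIs it stood at 647 CPM (514 to 804) in the untreated, 1209 CPM in the sham and 454 CPM (357 to 570) in the denervated library. From 300 to under 600 UMIs the levels were 681, 891 and 365 CPM, and from 600 UMIs they were 508, 732 and 240 CPM. The denervated library was lowest and the sham library highest in each band, although the untreated and denervated intervals overlapped in the shallowest one. Bmpr2 did not follow this order, at 256, 141 and 264 CPM, then 247, 221 and 293 CPM, then 239, 192 and 273 CPM. Eng was lower in the denervated than in the untreated library in each band, at 679, 527 and 620 CPM, then 569, 416 and 448.5 CPM, then 444, 411 and 306 CPM. From 600 UMIs its denervated interval (247 to 375) lay below the untreated (419 to 470) and sham (383 to 441) ones. The share of adipocyte markers in EC-like nuclei was also highest in the denervated library, at 17.6% of the BA-like level. With the other compartments subtracted Bmp6 stood at 631, 911 and 423 CPM in the untreated, sham and denervated libraries. Barcodes with under 200 genes, left out of these bands, held 308, 284 and 498 CPM of Bmp6 in that order.

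In EC-like nuclei the vascular receptor Eng had log2 ratios of -0.15 (-0.31 to 0.01) over untreated and 0.05 (-0.12 to 0.21) over sham after denervation, and Acvrl1 had 0.10 and 0.35. Over the other settings Eng ranged from -0.98 to 0.10 over untreated and from -1.44 to 0.26 over sham, the lowest of each with the profile of barcodes under 200 genes subtracted. Bmpr2 stood at 0.22 (0.01 to 0.42) and 0.48 (0.27 to 0.69). The largest sham over untreated ratios among the remaining members were those of Bmp1, at 0.90 (0.53 to 1.27), Acvr1, at -0.53 (-0.80 to -0.26), and Smad7, at -0.47 (-0.72 to -0.21).

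In BA-like nuclei, 0 of 9 members passed 2-fold in denervated over untreated, against 10.1% of all genes, 1 of 9 in denervated over sham, against 25%, and 1 of 9 in sham over untreated, against 18.9%. Smad7 was the member called in both, at 1.49 (0.55 to 2.52) and -1.996 (-2.96 to -1.15), and both calls rest on the 13 UMIs of the sham library, where 39 and 93 UMIs were counted in the denervated and untreated ones. Smad6 was higher in the denervated library by 0.50 (0.26 to 0.74) over untreated and 0.45 (0.17 to 0.73) over sham, with a sham over untreated ratio of 0.05 (-0.22 to 0.32). It was the member of BA-like nuclei in which denervation stood apart from both other libraries while these did not differ beyond counting error, at a size under 2-fold. Bmpr1a stood at 0.19 (0.06 to 0.31), 0.48 (0.33 to 0.63) and -0.30 (-0.44 to -0.16) in the same order of comparisons, and Bmpr2 at 0.17, 0.42 and -0.25, so that the untreated and sham libraries differed from each other in these receptors as well.

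In PC-like nuclei, 0 of 7 members passed 2-fold in any of the 3 comparisons, against 18.8%, 25.7% and 9.63% of all genes. Denervated over sham gave 0.50 (0.05 to 0.93) for Bmpr1a and -0.61 (-1.19 to -0.08) for Bmp1, which came to -0.19 with the other compartments subtracted, and sham over untreated gave -0.63 (-1.004 to -0.25) for Bmpr1a. Bmp6 stood at 0.73 in denervated over untreated and 0.91 in denervated over sham PC-like nuclei, opposite in sign to its EC-like ratios but with intervals that held 0. Over other settings its denervated over sham ratio ran from -0.66 to 1.30. In WA-like nuclei, 3 of 7 members passed 2-fold in denervated over sham, against 24.3% of all genes, 2 of 6 in denervated over untreated, against 19.5%, and 1 of 6 in sham over untreated, against 22.9%. In denervated over sham Smad7 stood at 1.895 (1.15 to 2.69), Bmp1 at 1.62 (0.60 to 2.72) and Smad6 at -1.41 (-2.45 to -0.48), from 51 and 22, 25 and 13, and 12 and 51 UMIs. In denervated over untreated the members past the fold were Bmp6, at -1.35 (-2.69 to 0.06) from 13 and 9 UMIs, and Bmp1, with 25 UMIs against 0. The untreated WA-like nuclei, 148 in number, gave 18.1 CPM of Smad6 from 4 UMIs, beside 39.0 CPM in the sham and 14.7 CPM in the denervated library, with a sham over untreated ratio of 1.11 (-0.33 to 3.04). When all libraries were clustered together the untreated level was 32.4 CPM from 11 UMIs, near the sham level of 39.2 CPM, with 15.8 CPM in the denervated library. For Smad7 the untreated level of 31.6 CPM lay between those of the sham and denervated libraries, with a sham over untreated ratio of -0.91 (-2.19 to 0.56).

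**Figure D4:**
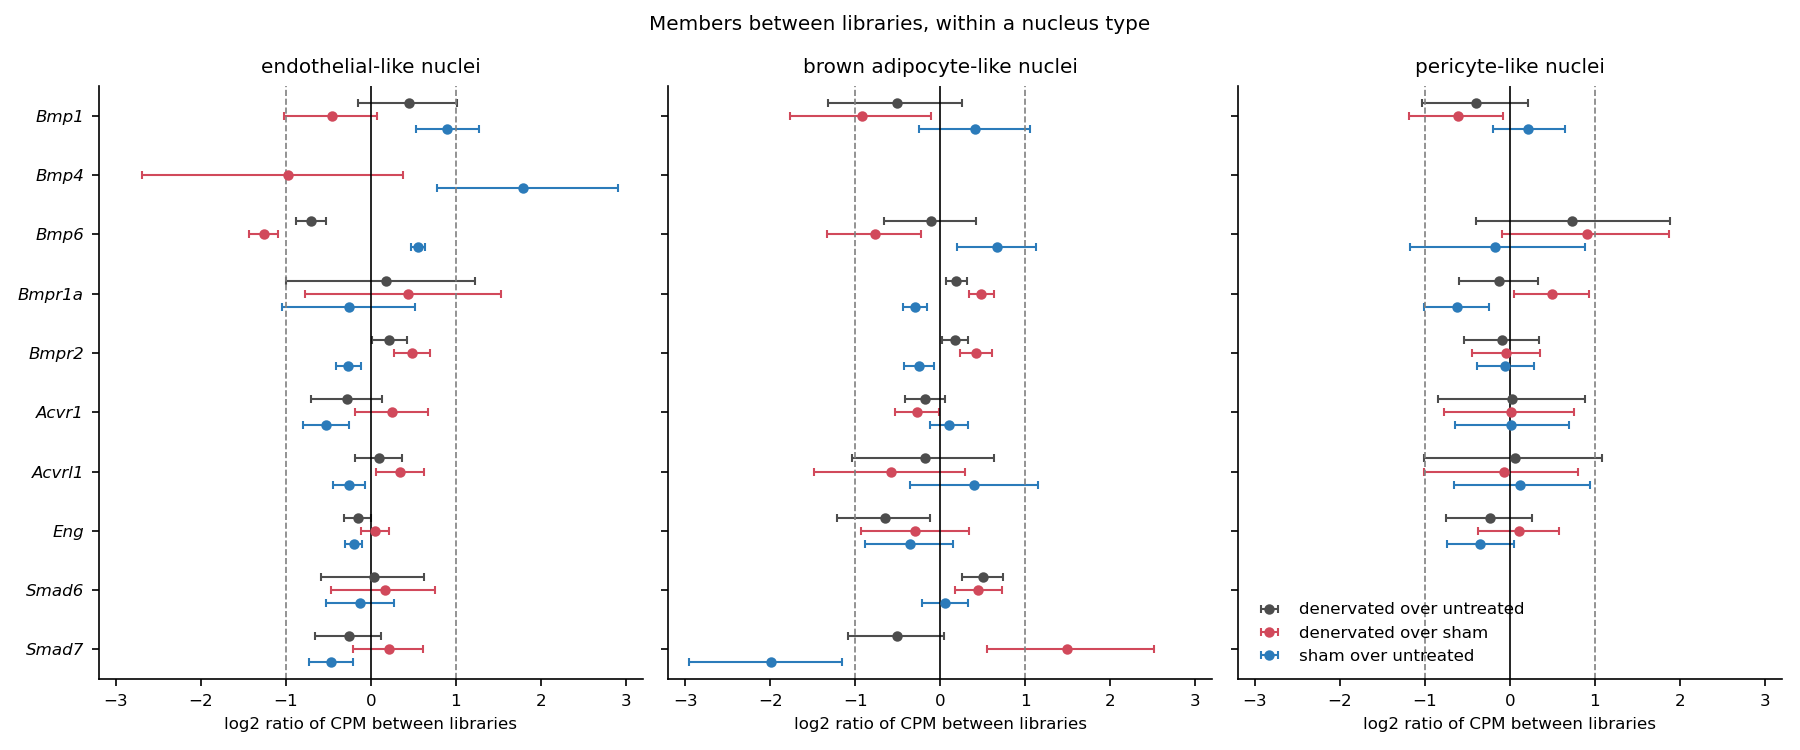
Log2 ratio of CPM between libraries (horizontal axis) for each member (vertical axis) in EC-like, BA-like and PC-like nuclei, with 1 point per pair of libraries, bars for the exact 95% interval and dashed lines at 2-fold; members with under 20 UMIs over both libraries are left out. Bmp6 and Bmp4 in EC-like nuclei and Smad7 in BA-like nuclei are the members past a dashed line.

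The rest of the pathway was read from 63 further genes in 7 lists, in EC-like over BA-like nuclei. In the untreated library, to which the counts below refer where no other is named, 18.8% of all genes were higher and 28% lower. Of the 6 signalling Smads, Smad1 at 257 against 38.2 CPM and Smad5 at 141 against 69.9 CPM were higher in untreated EC-like nuclei, with log2 ratios of 2.75 and 1.01, and Smad9 was the third past the fold. Smad3, which serves TGFβ and activin, was lower at 24.4 against 62.8 CPM, a ratio of -1.36. The median of this list was 0.77, against -0.29 for all genes, and 3 of 6 were higher and 1 lower. The sham library gave 2 of 5 higher and none lower, with Smad3 at 0.01, and the denervated library 2 of 5 higher and Smad3 lower. Of the target genes, 5 of the 6 that had enough UMIs were higher and none lower, with a median of 3.17. Id1 was at 230 against 20.7 CPM (3.47), Id3 at 372 against 82.8 CPM (2.17), Hey1 at 45.0 against 2.99 CPM (3.91) and Atoh8 at 53.1 against 1.43 CPM (5.21). Sham EC-like nuclei held less of Id1 and Id3, at 67.5 and 110 CPM, with ratios of 2.015 and 1.35. Denervated EC-like nuclei held 211 and 269.5 CPM of them, with ratios of 3.78 and 2.385. In the sham library 6 of 8 targets were higher and 2 lower, against 20.9% and 25.4% of all genes, and in the denervated library 5 of 6 were higher and 1 lower, against 18.5% and 26.7%. Id2 went the other way from Id1 and Id3, at -0.87 (-1.11 to -0.64), -1.65 (-1.93 to -1.38) and -1.20 (-1.79 to -0.67), and Hey2 was the other lower target of the sham library, with 1 UMI against 30.

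Of the other receptors and co-receptors, 3 of 11 were higher and 2 lower in untreated EC-like nuclei, with a median of 0.38. The sham library gave 2 higher and 2 lower with a median of 0.58, and the denervated library 1 higher and 3 lower with a median of -0.50. Acvr2a, a type II receptor for activins and BMPs, was at 98.6 against 46.2 CPM (1.09) and within the fold in the denervated library at 0.93, and the co-receptor Rgmb at 122 against 40.02 CPM (1.61). Acvr1c, which encodes ALK7, a receptor of adipocytes, was at 18.0 against 308 CPM (-4.10), and Rgma at 19.9 against 79.6 CPM (-1.996). Of the 13 other ligands only 4 had enough UMIs, and 3 of them were lower in EC-like nuclei, including Gdf5 at 0.562 CPM from 2 UMIs against 10.7 CPM (-4.26, -7.33 to -2.36). In the sham library only Bmp5 had enough UMIs, at 0.20, and in the denervated library 2 of 4 were lower.

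Of the extracellular antagonists and modulators, 2 of 7 were higher and 4 lower, with a median of -1.09. The sign of the median turned in the sham library, where 2 of 6 were higher and 2 lower with a median of 0.38, and in the denervated library 3 of 8 were higher and 4 lower with a median of -0.82. Crim1, a membrane-bound BMP binder, was at 443 against 47.8 CPM (3.21) and Fstl1 at 87.4 against 8.24 CPM (3.41), whereas Bmper was at 6.18 against 41.8 CPM (-2.76) and Kcp at 3.37 against 25.2 CPM (-2.90). Of the 7 intracellular and membrane inhibitors outside the members, 3 were higher and 2 lower, with a median of -0.23. Ski stood at 280 against 111 CPM (1.34) and Smurf2, a ubiquitin ligase for Smads and receptors, at 188 against 91.9 CPM (1.04), which fell within the fold at 0.75 in the sham and 0.997 in the denervated library, while Pmepa1 stood at 98.9 against 563 CPM (-2.51) and Tob1 at 76.7 against 396 CPM (-2.37). Of the 3 relatives of Bmp1 and its enhancers with enough UMIs, 1 was higher and 1 lower, the latter Pcolce2 with 0 UMIs against 32. Tll1, the tolloid relative of Bmp1, was at 15.4 against 2.27 CPM (2.77).

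Over the 18 type and library points, the genes whose log2(CPM + 1) ran most like that of Bmp6 were Cd300lg with a Pearson r of 0.96, Jam2 with 0.96 and Ptprb with 0.94, among 11285 genes. For Bmpr1a they were Irs1 with 0.95, Pde1a with 0.94 and Sort1 with 0.89, and for Bmp4, with its few UMIs, Pml with 0.87, Pkn3 with 0.85 and Micall2 with 0.85. Cd300lg and Ptprb were among the endothelial markers used to name clusters, and the points share libraries and nuclei, so these values describe likeness and nothing more. Txndc5 overlaps Bmp6 on the opposite strand, and whether the counting used strand is not given in the sources used here. Its level of 14.3 to 34.6 CPM did not follow that of Bmp6 across types. Fpgs, which overlaps Eng in the same way, was at 4.50 to 37.4 CPM and did not follow Eng.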

How the data were processed

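Tables of raw UMI counts, 1 column per gene and 1 row per barcode, were deposited by the authors for 3 libraries of single nuclei made with the BD Rhapsody whole transcriptome kit. Per the file headers of the untreated and denervated tables, the BD WTA Rhapsody Analysis Pipeline 1.9 counted them on GRCm38 with GENCODE vM19. The sham table has no header, and the submitters' processing notes name GRCh38 and Seurat 4.0.6.

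A barcode was used if it had 200 genes or more and no more than 50% of UMIs from mitochondrial genes, which 11792, 14027 and 10462 barcodes of the untreated, sham and denervated libraries had. Of these, 997, 1779 and 740 were taken out as doublets, with 3 or more UMIs from markers of 2 compartments and a lesser sum of 25% or more of the greater. Each library was clustered on its own (log2 of counts per 10000 plus 1, 2000 variable genes, 30 components, 20 neighbours, Louvain at resolution 0.5), then endothelial, adipocyte and stromal clusters were clustered again. A name needed at least 3 markers with at least 3 UMIs and a 2-fold excess, under 35% of another compartment's marker level, and no majority of another list's markers among the 10 leading genes. The second clustering and the last 2 rules were set after clusters had been seen. The members and gene lists were chosen with earlier results of these data known. The study's DIEM, decontX, MAST and CellChat steps were not repeated.

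UMIs were summed per type. Intervals are exact 95% intervals: Poisson for CPM, Clopper-Pearson for shares, conditional binomial for ratios. Calls need 20 UMIs over both sides and a 2-fold ratio. The values named are those of all 10 members, of up to 4 genes per pathway list past 2-fold with at least 50 UMIs, ranked by UMIs, and of the 3 genes most correlated with Bmp4, Bmp6 and Bmpr1a among those with at least 200 UMIs. Ambient RNA was subtracted as the profile of the other compartments, scaled to their markers, and results under 0 were set to 0. On counts simulated for the untreated contrast of endothelial-like with brown adipocyte-like nuclei, with 200 of 13611 genes changed by a log2 of 2 in size, 100% of the changed genes passed the fold, 1.71% of the others did, and 96.0% of the intervals held the true value. The changed genes were drawn from those with at least 50 brown adipocyte-like UMIs. Counts were Poisson draws, as the intervals assume, so these shares do not cover smaller changes, rarer genes or variation between nuclei and libraries. Python 3.11.15, numpy 2.4.6, scipy 1.17.1, scikit-learn 1.9.0, python-igraph 0.11.9 and matplotlib 3.10.9 were used.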

Additional observations from a re-analysis of the deposited data

Results flagged for a closer look

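Barcodes with under 200 detected genes enter no main comparison above and still held BMP transcripts. They were used only in other settings, with a minimum of 100 genes or with their profile subtracted. Bmp6 stood at 308 CPM in the 1871 such barcodes of the untreated library, 284 CPM in the 988 of the sham library and 498 CPM in the 5358 of the denervated library. The denervated level lay above that of the library's endothelial-like nuclei. Bmpr1a stood there at 10.1 CPM in the sham library and 33.3 CPM in the denervated library, above the limit that a count of 0 allows. The endothelial markers summed to 5322, 4451 and 10364 CPM in these barcodes, against 12471, 10721 and 10759 CPM in endothelial-like nuclei. In the denervated library these barcodes were thus nearly as rich in endothelial markers as the named nuclei. They held 872118 UMIs there, beside 923764 in its endothelial-like nuclei.

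Bmp1 and Smad6 were the members whose denervated over sham ratio differed in sign between types when only ratios with an interval clear of 0 are read; other members also differed in sign with intervals that held 0 in at least 1 of the types. Bmp1 had log2 ratios of -0.92 in brown adipocyte-like, -0.61 in pericyte-like and 1.62 in white adipocyte-like nuclei, and the pericyte-like value came to -0.19 once the profile of the other compartments was subtracted. The same subtraction took brown adipocyte-like Bmp1 from 7.93 to 3.63 CPM in the sham library. In the denervated library it took this level from 4.20 to 0.534 CPM. Smad6 had log2 ratios of 0.45 in brown adipocyte-like and -1.41 in white adipocyte-like nuclei. With 1 library per condition these differences between types were not tested.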

How the results depend on the processing

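No value past 2-fold changed its sign, but sizes moved: 12 of 18 endothelial-like over brown adipocyte-like ratios moved beyond their interval under ambient subtraction, and 14 of 22 under the profile of barcodes under 200 genes, up to 9.69 for Acvrl1 in the untreated and 12.17 for Eng in the sham library. Of 28 such ratios, the others have no size under ambient subtraction because a side fell to 0 CPM. They were those of Bmpr1a and Eng in all 3 libraries, Bmp6 in the untreated and sham, Bmp4 in the sham and Acvrl1 in the denervated library. Counts of members past 2-fold kept within 1.5 times of their reported size in 70 of 72 alternatives when endothelial-like and brown adipocyte-like nuclei were compared, 87 of 107 between libraries and 12 of 17 for arterial nuclei. The cause of each other count was not tested. A minimum of 500 genes gave 2 members lower in denervated endothelial-like nuclei than in brown adipocyte-like ones, 3 members in denervated over untreated endothelial-like nuclei and 1 in untreated arterial nuclei. The profile of barcodes under 200 genes, an alternative chosen after seeing the data and rich in endothelial RNA, gave 2 lower members in the same denervated contrast, and 3, 6 and 4 members in endothelial-like nuclei for denervated over untreated, denervated over sham and sham over untreated. A minimum of 100 genes, also chosen afterwards, gave 1 for denervated over untreated and 3 for denervated over sham in endothelial-like nuclei, and 1 and 7 for untreated and sham arterial nuclei. Names of the first clustering, chosen afterwards too, gave the same 1 and 3 in endothelial-like nuclei, and 1 for sham over untreated pericyte-like nuclei. No removal of doublets gave 1 for denervated over untreated endothelial-like nuclei, while CPM without mitochondrial genes and the largest endothelial cluster (chosen afterwards) each gave 2 for denervated over sham. At most 10% mitochondrial UMIs gave 2 for sham over untreated endothelial-like nuclei, 1 for pericyte-like nuclei and 1 for untreated arterial nuclei. Ambient subtraction gave 1 for denervated over untreated brown adipocyte-like nuclei. In pericyte-like nuclei no UMI minimum gave 2, 3 and 3 in the same order of comparisons, BMP genes in the clustering 1 for denervated over sham, and joint clustering 1 for sham over untreated. BMP genes in the clustering gave 8 in sham arterial nuclei. The ratio of Bmp6 in endothelial-like nuclei kept past 2-fold in denervated over sham in all 13 alternatives (-4.73 to -1.02) and passed it in 3 of 13 for denervated over untreated (-3.51 to -0.49). Bmp4 rested on 11, 36 and 5 endothelial-like UMIs. Arterial against capillary nuclei could not be compared because no cluster met the capillary rule, and other endothelial-like nuclei took their place after the data were seen. No paired analysis was possible because there was 1 library per condition.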

Other observations

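Clusters left without a name also held BMP transcripts. In a cluster of 578 denervated nuclei split from the endothelium, where the adipocyte markers stood at 87.2% of their brown adipocyte-like level, Bmp6 and Bmpr1a were each at 153 CPM (119 to 194, from 68 UMIs) and Eng was at 147 CPM. The corresponding clusters of 72 untreated and 116 sham nuclei held 116 and 154 CPM of Bmp6 beside 109 and 74.4 CPM of Bmpr1a. In 75 sham nuclei led by the macrophage and antigen-presentation genes Cd74, H2-Ab1 and F13a1, Bmp6 was at 415 CPM (276 to 599, from 28 UMIs), with the endothelial markers at 45.3% of their endothelial-like level. A denervated cluster of 260 nuclei led by the macrophage genes Mrc1, Lyz2 and Csf1r held 1 UMI of Bmp6, or 6.36 CPM (0.161 to 35.4). The 101 denervated nuclei split from the pericytes and led by the smooth muscle genes Acta2 and Myh11 were left unnamed because smooth muscle markers outnumbered pericyte markers among their leading genes, and held 217 CPM (116 to 371) of Bmpr1a and 200 CPM (104 to 350) of Bmpr2, and 2 UMIs of Bmp6.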
